A study of Mus musculus with 12 samples.

Results

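Among the 41128 genes of the expression table, 9 rows were structural or long noncoding RNAs selected by name for their levels: Rn7sk, Gm26191, Rmrp, Rpph1, Malat1, Neat1, Yam1, Gas5 and Snhg1. Each name matched 1 row, and all 9 were among the 12520 genes that reached 1 adjusted TPM in at least 3 libraries. RNA was sequenced from C57BL/6J mice aged 6 to 8 weeks, with no genetic change or treatment stated for any group. The 4 groups were CD43- resting B cells of females, CD43- resting B cells of males, CD4+ CD62L+ naive T cells of females and CD4+ CD62L+ naive T cells of males, all from spleen and with 3 libraries each. The series describes its replicates as pooled, so a library is not 1 animal, and the spread reported here is the spread between such libraries. B cell libraries carried the numbers 1 to 3 and T cell libraries the numbers 4 to 6. The sample codes also hold a digit whose meaning is not stated and which differs between females and males within each cell type, so sex and whatever that digit stands for cannot be told apart in any value given for females against males.

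Rn7sk, Gm26191, Rmrp and Rpph1 are short RNAs made by RNA polymerase III. The 7SK RNA (Rn7sk) holds the elongation factor P-TEFb in an inactive particle, 7SL RNA (Gm26191) is the scaffold of the signal recognition particle, and Rmrp and Rpph1 are the RNA subunits of RNase MRP and RNase P, which process ribosomal and transfer RNA precursors. Malat1 and Neat1 are long nuclear RNAs made by RNA polymerase II: Malat1 is found in nuclear speckles and Neat1 builds paraspeckles. Gas5 and Snhg1 are spliced host RNAs whose introns carry small nucleolar RNAs (snoRNAs), and their spliced forms are known to be removed by nonsense-mediated decay. Yam1 is annotated as a long intergenic noncoding RNA.

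The sequence of Rn7sk is shown because its 5′ hairpin is the part that binds the inhibitor Hexim1. In the GRCm38 assembly the gene lies on the minus strand at chr9:78175303-78175633, and the first 100 bases below lie at chr9:78175534-78175633. Capitals mark the motif GATC, which reads the same on both strands and began at positions 13, 42 and 64 from the 5′ end. At least 3 such motifs in the first 100 bases were found in 0.323% of 139316 annotated transcripts of that length or longer.
Rn7sk: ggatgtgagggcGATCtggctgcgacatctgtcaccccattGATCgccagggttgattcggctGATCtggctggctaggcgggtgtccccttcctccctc

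Gm26191 (chr12:69361182-69361481, minus strand) is called Rn7s2 in the GENCODE M21 annotation, and the row Gm22405 (chr12:69159295-69159594, plus strand) is called Rn7s1. Their annotated transcripts of 300 bases had 0 differences, and a read from one cannot be told from a read of the other.

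Yam1 (chr17:39846958-39848788, plus strand) is shown because its first bases carry a stretch of small subunit ribosomal RNA that is known for its conservation. Capitals mark the motif CAGCCGCGG with 5 bases on each side, positions 15 to 33 of the transcript, searched on the transcript strand alone. This motif was found in 0.672% of 141767 annotated transcripts. The annotation places a gene of type rRNA, CT010467.1, and the RNA AY036118 on the opposite strand of the same interval.
Yam1: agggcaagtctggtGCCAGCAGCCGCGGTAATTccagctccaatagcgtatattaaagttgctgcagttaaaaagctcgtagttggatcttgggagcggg

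Rmrp (chr4:43492788-43493058, minus strand) is shown with the 159 of its 271 bases that fall inside Ccdc107, a coding gene on the opposite strand, in capitals. Ccdc107 itself had 6.23 to 13.7 adjusted TPM. The libraries were made with a stranded kit, but whether the quantification used the strand is not given in the sources used here.
Rmrp: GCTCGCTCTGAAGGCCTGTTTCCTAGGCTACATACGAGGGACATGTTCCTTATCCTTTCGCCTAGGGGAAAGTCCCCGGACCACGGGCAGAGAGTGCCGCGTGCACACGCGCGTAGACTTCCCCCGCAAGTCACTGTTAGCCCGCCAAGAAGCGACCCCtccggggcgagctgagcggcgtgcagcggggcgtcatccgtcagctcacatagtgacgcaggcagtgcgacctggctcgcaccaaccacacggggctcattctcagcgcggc

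Adjusted TPM is the unit of the table, a level per transcript length that the submitters rescaled between libraries. The annotated genes ran from 271 bases for Rmrp to 20771 for Neat1. The quantifier, and how it treats short RNAs, is not given in the sources used here. The order of different RNAs is thus an order of the deposited values. By their medians over 12 libraries the order of the levels was Rn7sk at 93760, Yam1 at 57197, Gm26191 at 45374, Rmrp at 16640, Rpph1 at 8830, Malat1 at 2122, Gas5 at 299, Neat1 at 60.2 and Snhg1 at 39.3 adjusted TPM. Gm26191 was given 40.1% to 77.1% of the sum of the identical 7SL copies, so its place is not that of 7SL RNA as a whole. The ranges of neighbours in this order overlapped for Rn7sk and Yam1, Yam1 and Gm26191, Gm26191 and Rmrp, Rmrp and Rpph1, and Neat1 and Snhg1. They did not overlap between Rpph1 and Malat1, Malat1 and Gas5, or Gas5 and Neat1. These levels are those the RNAs were selected on, so they stand as a description without a test. The 5 highest ranked between 1 and 12 among all genes in every library. Malat1 ranked 17 to 54, Gas5 186 to 259, Neat1 812 to 2043 and Snhg1 1117 to 3997, so that Neat1 and Snhg1 were not among the most abundant RNAs.

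The 9 RNAs together took 20.3% of the total of female B cell 3, a median of 30.0% and 49.8% of male T cell 6. Female B cell 1 followed with 44.4%, and the other 10 libraries held 20.3% to 34.5%. Most of the difference between libraries lay in 1 RNA: Yam1 alone took 2.03% to 37.4%. With Yam1 left out of both sides of the share, the other 8 RNAs took 16.9% to 27.1% of the rest. The depth of these libraries is unknown because the table gives no counts. The deposited upper bound was at most 1.02 times the lower bound for Yam1 in any library and at most 1.16 times for Snhg1, and the level these bounds stand for is not given in the sources used here.

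**Figure D1:**
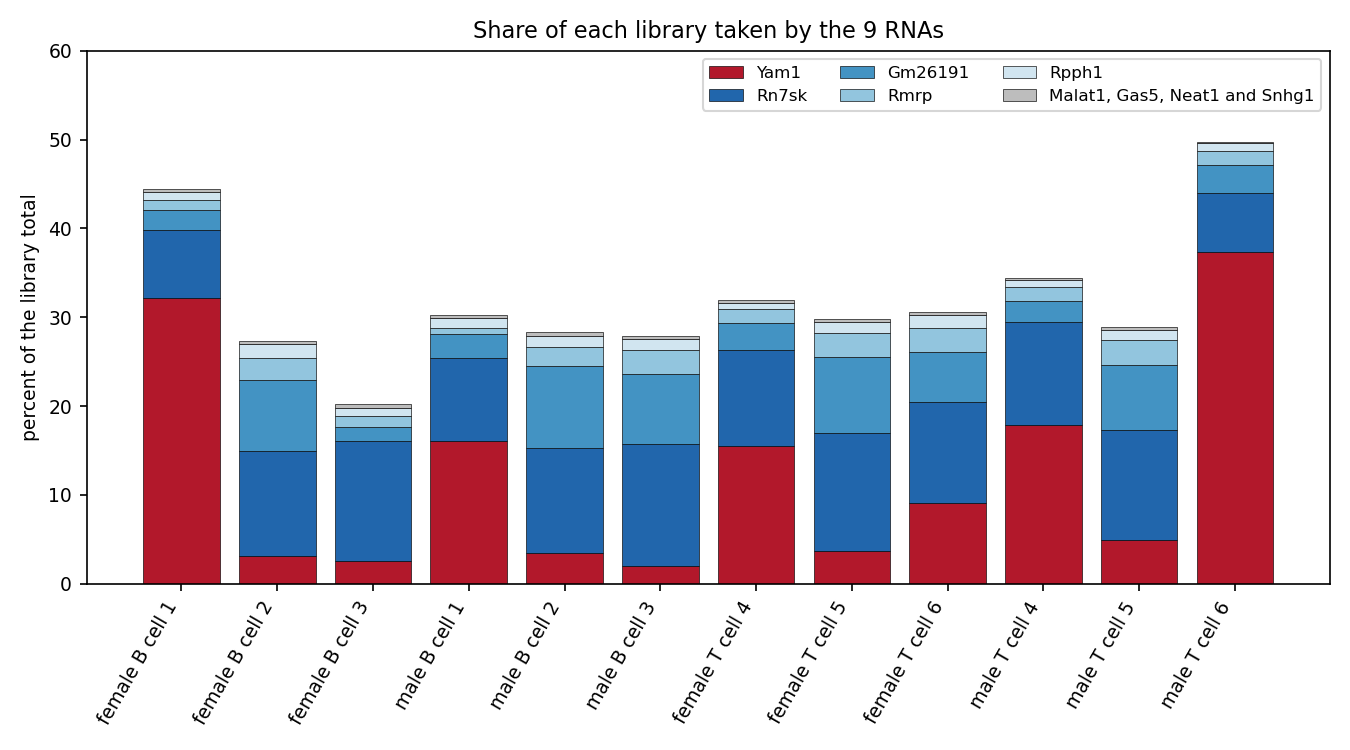
Percent of each library's total adjusted TPM (vertical axis) taken by each RNA in the 12 libraries (horizontal axis). The red part, Yam1, reached 32.2% in female B cell 1 and 37.4% in male T cell 6, against 2.03% in male B cell 3.

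Yam1 was the most variable of the 9. The female B cell libraries had 321581, 23315 and 14179 adjusted TPM and the male B cell libraries 124230, 23025 and 14221. The female T cell libraries had 140561, 32575 and 72323 and the male T cell libraries 168420, 42071 and 543238. In B cells of both sexes library 1 was the highest and library 3 the lowest, and male T cell 6 was the highest of all, 38.3 times the lowest library. The standard deviation within groups on the log2 scale was 1.81 for Yam1, above 99.9% of the genes tested. Yam1 ranked first in 5 libraries, female B cell 1, male B cell 1, female T cell 4, male T cell 4 and male T cell 6, and Rn7sk ranked first in the other 7.

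The genes whose levels were most like Yam1 over the 12 libraries, of 6711 genes with a mean of at least 10 adjusted TPM, were Lars2 (mitochondrial leucyl-tRNA synthetase) with a Pearson r of 0.98, Mir6240 with 0.96 and mt-Rnr1, the small mitochondrial ribosomal RNA, with 0.96. Lars2 ranged from 3391 adjusted TPM in male B cell 3 to 112630 in male T cell 6, which are also the libraries with the lowest share and the highest level of Yam1. The row of Lars2 took 7.75% of the total of male T cell 6. Whether its reads came from the messenger RNA of the synthetase was not tested. These correlations describe 12 libraries that share cell types and preparation, and they carry no test. The libraries had been depleted of ribosomal RNA with Ribo-Zero Gold. The part of that depletion in the level of Yam1 was not tested.

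Rn7sk was steady beside it. In female B cells it had 76529, 89227 and 75658 adjusted TPM and in male B cells 72012, 79663 and 96053. In female T cells it had 97652, 117290 and 91467 and in male T cells 110282, 106456 and 96124. The T cell libraries were mostly the higher ones, but male B cell 3 lay above female T cell 6, so the cell types overlapped. The highest library had 1.63 times the level of the lowest, and the standard deviation within groups was 0.16 on the log2 scale. Its share of the total fell to 6.61% in male T cell 6 and 7.65% in female B cell 1, the libraries highest in Yam1, and reached 13.7% in male B cell 3.

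Gm26191, one of the identical 7SL copies, varied 7.99-fold, and the sum of the copies, which does not rest on how reads were split between them, varied 5.43-fold. Levels in female B cells were 22961, 59898 and 9371 adjusted TPM and in male B cells 20610, 61770 and 55658. Levels in female T cells were 27067, 74891 and 44947 and in male T cells 22271, 63351 and 45802. In T cells the libraries of a number lay close together in both sexes, with number 4 lowest and number 5 highest. In B cells library 1 was low in both sexes, while library 3 was the lowest female and among the higher male libraries.

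Since both 7SL copies have the same annotated sequence, their sum is the level that can be measured. It ran from 19981 adjusted TPM in female B cell 3 to 108420 in female T cell 5. Gm26191 was given 40.1% to 58.0% of this sum in the 3 female B cell libraries and 73.3% to 77.1% in the 3 male ones. In T cells the part given to Gm26191 was 63.3% to 72.4% in females and 61.4% to 68.8% in males. The split between identical sequences did not overlap between the sexes in B cells, a difference that was not tested, that cannot be assigned to either gene and that also goes with the digit in the sample codes. For the sum, B cells were lower than T cells by a log2 difference of −0.30 (SE 0.68), which did not pass the test (limma adjusted p = 0.7).

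**Figure D2:**
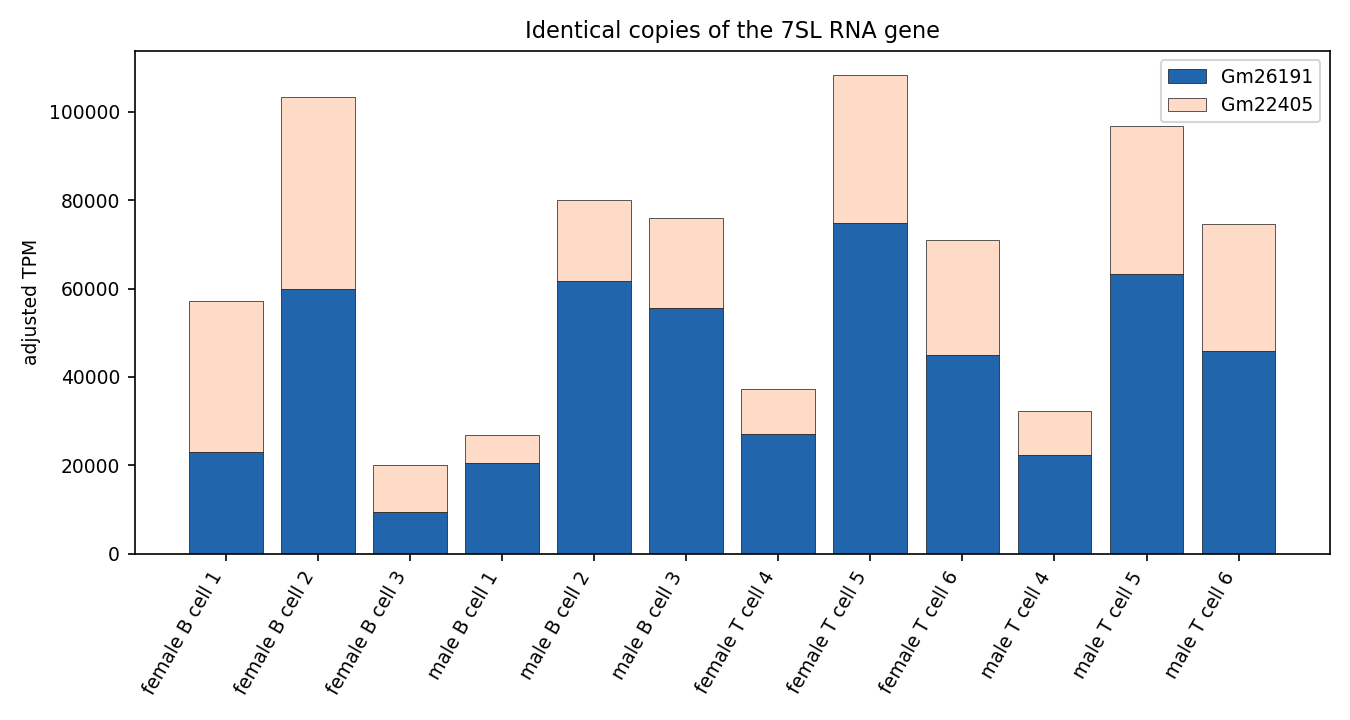
Adjusted TPM (vertical axis) of the identical 7SL genes Gm26191 (blue) and Gm22405 (light) in the 12 libraries. The stacked height is the sum that can be measured, from 19981 to 108420 adjusted TPM.

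Rmrp, the RNase MRP RNA, moved much as Gm26191 did. Female B cells had 11196, 18618 and 6976 adjusted TPM and male B cells 5531, 14052 and 19053. Female T cells had 14065, 24354 and 21353 and male T cells 14661, 24416 and 23775. About the group means, Rmrp and Gm26191 had a Pearson r of 0.92 over the 12 libraries. The T cell libraries of number 4 were the lowest T cells in both sexes, and the cell types overlapped. The genes most like Rmrp were Snora74a with r of 0.99 and Snora73a with 0.98, both snoRNAs of the box H/ACA class, and Gm17300, annotated as a long intergenic noncoding RNA, with 0.98.

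Rpph1, the RNase P RNA, had 8319, 11445 and 4883 adjusted TPM in the female B cell libraries and 8816, 8844 and 8257 in the male ones. The female T cell libraries had 6917, 11256 and 11468 and the male T cell libraries 7384, 9763 and 12078. The T cell libraries of number 4 were again the lowest of their cell type, and the range of the B cells, 4883 to 11445, lay across that of the T cells. Rpph1 (chr14:50807449-50807767, minus strand) starts 73 bases from Parp2, a DNA damage response gene on the other strand with which it is known to share a promoter region. Parp2 was higher in B cells, with 23.0 ± 1.58 adjusted TPM (SD, n = 6) against 17.5 ± 1.05 in T cells, a log2 difference of 0.37 (SE 0.05, limma adjusted p = 5.1e-05), while Rpph1 had a log2 difference of −0.23 (SE 0.28).

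**Figure D3:**
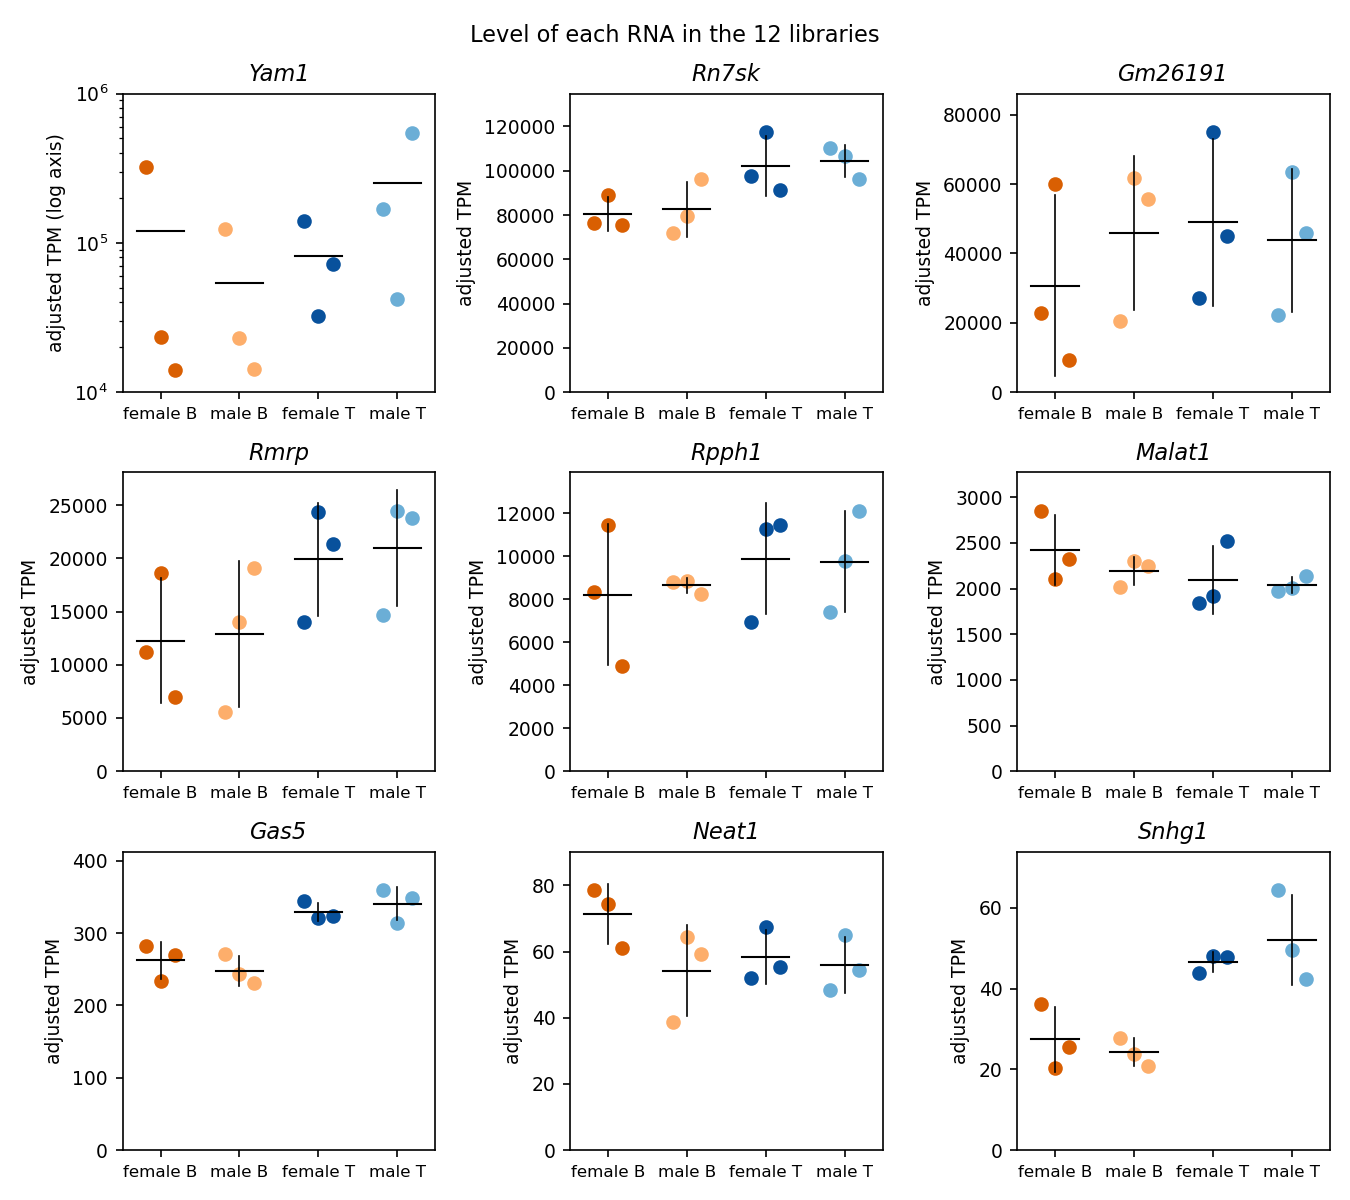
Adjusted TPM (vertical axis, from 0 except for Yam1, which has a log axis) of each RNA in the 4 groups of 3 libraries (points, in order of their numbers). Horizontal bars are group means and vertical bars 1 SD, not drawn for Yam1. Gas5 and Snhg1 are the RNAs whose B and T cell points do not overlap.

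Malat1 was among the even RNAs. For female B cells the values were 2845, 2101 and 2326 adjusted TPM and for male B cells 2021, 2304 and 2251. For female T cells they were 1840, 1921 and 2522 and for male T cells 1977, 2001 and 2143. Female B cell 1 was the highest and female T cell 4 the lowest, 1.55-fold apart, and the cell types overlapped. Neat1, which lies next to Malat1 on chromosome 19, had 78.5, 74.5 and 61.0 adjusted TPM in female B cells and 38.7, 64.5 and 59.4 in male B cells. It had 52.0, 67.5 and 55.4 in female T cells and 48.3, 64.9 and 54.4 in male T cells. Male B cell 1 was the lowest Neat1 library, and T cell libraries of number 5 were the highest T cells in both sexes. The deviations of Malat1 and Neat1 from their group means had a Pearson r of 0.26.

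The nearest coding gene on the far side of Neat1 is Frmd8, 4223 bases away. Frmd8 had 55.0 ± 6.43 adjusted TPM (SD, n = 6) in T cells and 9.93 ± 0.77 in B cells, a log2 difference of −2.35 (SE 0.08, limma adjusted p = 1.7e-11). The long RNAs beside it did not show a difference of that size: the 95% interval of the B minus T log2 difference ran from −0.17 to 0.39 for Neat1 and from −0.13 to 0.44 for Malat1.

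Gas5 was higher in T cells in every library. B cells of females had 282, 234 and 270 adjusted TPM and those of males 271, 243 and 230. T cells of females had 344, 321 and 323 and those of males 359, 315 and 349. The lowest T cell library, male T cell 5, lay above the highest B cell library, female B cell 1. The mean was 255 ± 21.9 adjusted TPM (SD, n = 6) in B cells and 335 ± 17.9 in T cells.

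Snhg1 followed the same pattern at a lower level. The female B cell libraries had 36.3, 20.4 and 25.6 adjusted TPM and the male B cell libraries 27.8, 23.9 and 20.9. The female T cell libraries had 43.9, 48.2 and 47.7 and the male T cell libraries 64.3, 49.6 and 42.3. Again no B cell library reached the lowest T cell library, with means of 25.8 ± 5.85 adjusted TPM (SD, n = 6) in B cells and 49.3 ± 7.85 in T cells. Gas5 and Snhg1 had a Pearson r of 0.94 over the 12 libraries and of 0.69 about the group means. The gene most like Gas5 was Irf2bp2, with r of 0.995, and the gene most like Snhg1 was Helb, a DNA helicase, with 0.98. Helb also came second for Gas5, with 0.98, and Ppp2r5d, a phosphatase subunit, was in the first 3 for both.

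For the remaining RNAs the likeness was lower. Gm26191 was most like Gm22179, another small RNA row, with r of 0.93, and the snRNA row Gm25890 and Snora44 followed with 0.93 and 0.92. Rpph1 was most like the snoRNA row Gm22154 with 0.89, before Snora26 with 0.89 and Scarna6 with 0.88. The 3 genes most like Rn7sk, Malat1 and Neat1 were all coding genes, led by Mcm3ap with 0.94, by the splicing factor Hnrnph1 with 0.91 and by the histone deacetylase Hdac7 with 0.91.

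In the comparison of B with T cells across all 12520 genes (limma on log2 values with 1 added, Benjamini-Hochberg adjustment), 2 of the 9 RNAs passed an adjusted p of 0.05, against 73.0% of all genes tested. Both were higher in T cells, as were 41.6% of all genes. The log2 difference, B minus T, was −0.92 (SE 0.13, adjusted p = 4.1e-05) for Snhg1 and −0.39 (SE 0.07, adjusted p = 0.00027) for Gas5. These were also the 2 whose B and T cell libraries did not overlap, which was so for 53.9% of all genes. Both shares of the 9 RNAs were under this background. In bulk libraries, fewer cells that carry an RNA and less of it per cell cannot be told apart.

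The other 7 did not pass. The log2 differences, B minus T, were −1.37 (SE 1.02) for Yam1, −0.81 (SE 0.40) for Rmrp, −0.45 (SE 0.61) for Gm26191, −0.34 (SE 0.70) for Rn7sk, −0.23 (SE 0.28) for Rpph1, 0.16 (SE 0.13) for Malat1 and 0.11 (SE 0.13) for Neat1, with adjusted p from 0.086 for Rmrp to 0.67 for Rn7sk. The intervals of the short RNAs were wide, from −1.68 to 0.06 for Rmrp and from −1.86 to 1.17 for Rn7sk. For Rn7sk the width came from the fit, which takes the spread of a gene partly from genes of like level. Without that trend the log2 difference of −0.34 had an adjusted p of 0.0040, and that of Rmrp one of 0.035, so that 4 of the 9 passed, against 72.7% of all genes in that fit. Rmrp also passed with female B cell 2 left out, at −0.99 (adjusted p = 0.043), or male B cell 3, at −0.99 (adjusted p = 0.050).

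Gas5 rested on the scaling between libraries, and Snhg1 did not. When every library was set to a total of 1000000, the difference of Gas5 was −0.01 (adjusted p = 0.96) and that of Snhg1 was −0.55 (adjusted p = 0.010). Neat1 then passed as higher in B cells, with 0.49 (adjusted p = 0.027). In this fit limma took the spread of every gene from genes of like level alone. Its calls thus do not weigh how far apart the libraries of the gene itself lay. With the 9 RNAs left out of that total, Gas5 had −0.11 (adjusted p = 0.36), Snhg1 had −0.65 and passed again, and both Neat1 with 0.39 (adjusted p = 0.018) and Malat1 with 0.44 (adjusted p = 0.022) passed as higher in B cells. Over all genes tested, the median log2 difference was −0.09 as deposited, 0.25 at equal totals and 0.17 at equal totals without the 9 RNAs. The genes that passed were 3926 higher in B and 5208 higher in T cells as deposited, 4812 and 1985 at equal totals, and 5521 and 2856 at equal totals without the 9 RNAs. Without female B cell 1 and male T cell 6, the libraries highest in Yam1, Gas5 had a log2 difference of −0.41 (adjusted p = 0.00097) and Snhg1 of −1.10 (adjusted p = 3.9e-06). With same-numbered T cell libraries fitted as correlated pairs, adjusted p was 0.00061 for Gas5 and 0.00019 for Snhg1, and the other 7 RNAs did not pass.

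**Figure D4:**
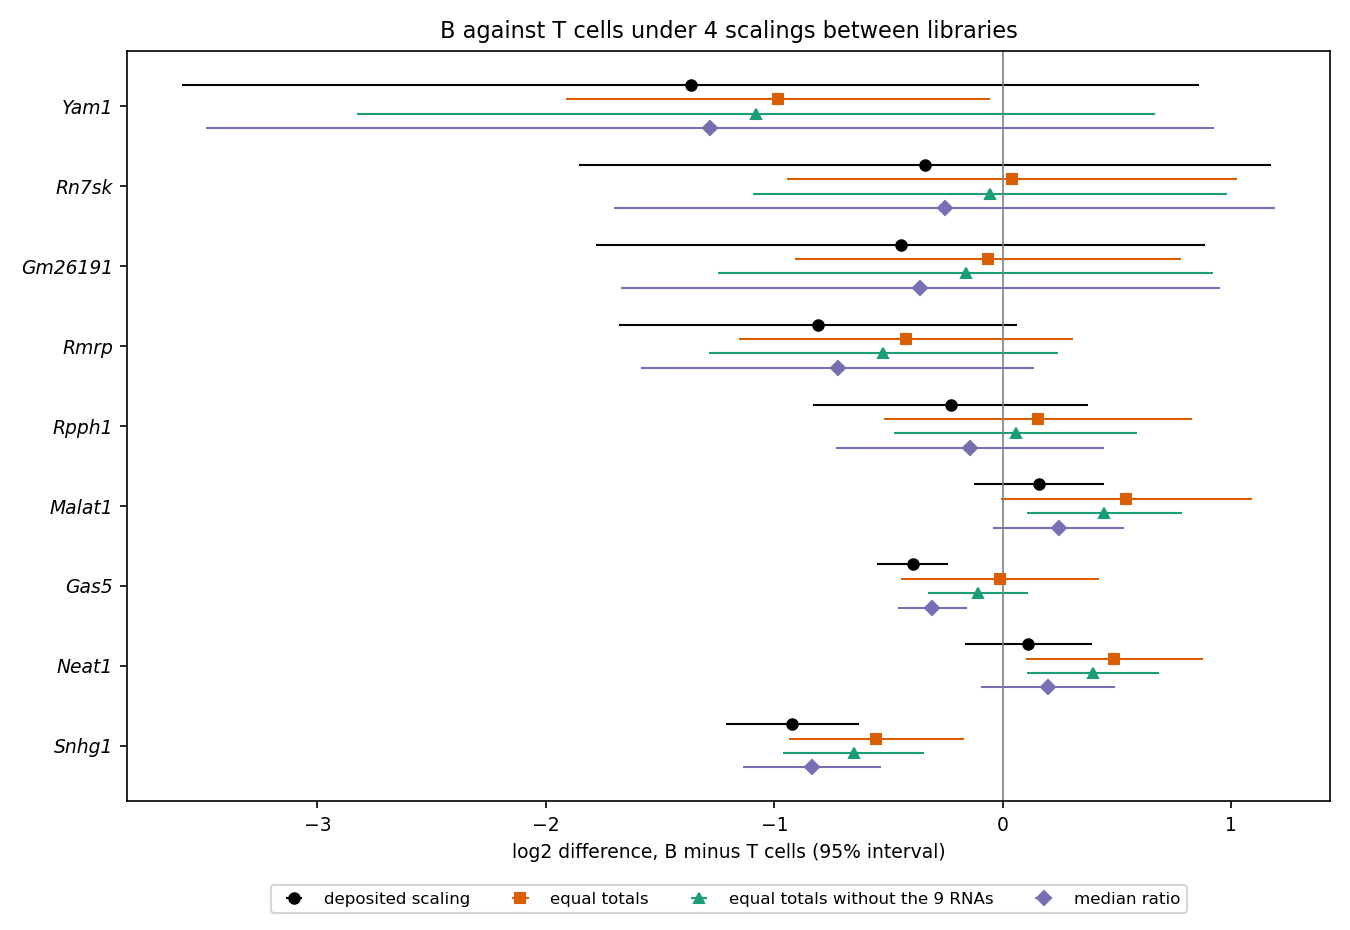
Log2 difference, B minus T cells (horizontal axis), of each RNA with its 95% interval under 4 scalings between the 12 libraries. Intervals of Snhg1 lie below 0 under all 4, and those of Gas5 under the deposited and the median ratio scaling. Those of Neat1 lie above 0 at equal totals with or without the 9 RNAs, and that of Malat1 lies above 0 without them. That of Yam1 lies below 0 at equal totals, where it did not pass (limma adjusted p = 0.067). In that fit the spread came from genes of like level alone, and the SE of Yam1 was 0.47 against 1.02 as deposited. Its interval there does not reflect the spread of Yam1 between libraries.

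No difference between females and males passed the test for any of the 9 RNAs. In B cells 0 of 9 passed (0.144% of all genes did), in T cells 0 of 9 (0.104%), and for the difference of the sex effects between the cell types 0 of 9 (0%). The largest log2 differences, female minus male, were −0.82 (SE 0.87) for Gm26191 in B cells and −1.18 (SE 1.45) for Yam1 in T cells. For the sum of the identical 7SL copies the difference in B cells was −0.16 (SE 0.97), so most of the value of Gm26191 lay in the split between the copies. Neat1 in B cells, with a log2 difference of 0.42 (SE 0.18), had the only unadjusted p under 0.05 among them, 0.040, with an adjusted p of 1. For Gas5 the interval of the sex difference ran from −0.14 to 0.30 in B cells and from −0.27 to 0.17 in T cells.

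The starts of Gas5 and Snhg1 are shown because both are known as members of the class of genes whose RNA begins with a run of pyrimidines, which ties their turnover to translation. Each line gives 30 bases before and 50 from the start in RefSeq (GRCm38.p6, plus strand), with the unbroken run of C and T from a C at the start in capitals. The Gas5 start at chr1:161035136-161035215 had a run of 5, and 2.50% of 32851 RefSeq starts had a run that long. The Snhg1 start at chr19:8723457-8723536 had a run of only 3, broken by an A, which 5.81% of starts reached. The bases at this start thus do not by themselves bear out the place of Snhg1 in that class. A further Gas5 start in RefSeq had no such run.
Gas5: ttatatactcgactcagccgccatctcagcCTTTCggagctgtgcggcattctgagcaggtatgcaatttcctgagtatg
Snhg1: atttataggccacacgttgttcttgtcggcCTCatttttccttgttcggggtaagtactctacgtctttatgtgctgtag

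The snoRNAs inside these host genes, apart from Snord22, had rows at very low values. Whether the libraries kept RNAs as short as these was not tested, so the values do not give their amount in the cells. Of 10 snoRNA genes annotated inside Gas5, 9 had a row and none reached the level for the test, the highest value in any library being 0.159 adjusted TPM. Of 8 inside Snhg1, 7 stayed at or below 0.0417 adjusted TPM and only Snord22 was tested. Snord22 had 38.5 adjusted TPM in female B cell 3 and 1855 in male T cell 5, with 40.9 and 55.9 in the T cell libraries of number 4 and 746 to 1855 in those of numbers 5 and 6. Its log2 difference, B minus T, was −0.43 (SE 1.10, limma adjusted p = 0.73). The T cell libraries of number 4 were thus the lowest T cells for Snord22, as they were for Rmrp and Gm26191.

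Other snoRNA host RNAs were compared next. Of 18 listed, 16 had a row and 15 were tested: 8 were higher in T cells (41.6% of all genes were), 2 in B cells (31.4% of all genes were) and 5 did not pass, with a median log2 difference of −0.46 beside −0.09 for all genes. Snhg12 had 62.8 adjusted TPM in T and 36.5 in B cells, a log2 difference of −0.77 (SE 0.08), and 2410004N09Rik (Epb41l4aos) had 23.4 and 13.3, a difference of −0.78 (SE 0.13). In the other direction stood Snhg18, with 0.983 adjusted TPM in B and 0.0122 in T cells. It entered the test through B cell libraries alone, at no more than 1.3 adjusted TPM, so its call was largely set by the filter. The other was 1500012F01Rik (Zfas1), with 56.3 and 49.0. Its call was lost when same-numbered T cell libraries were fitted as correlated pairs (limma adjusted p = 0.076). At equal totals 0 of the 15 were higher in T cells (15.9% of all genes were) and 2 were higher in B cells (38.4% of all genes were), with a median of −0.10 against 0.25 for all genes. How the group stood to other genes was not tested.

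**Figure D5:**
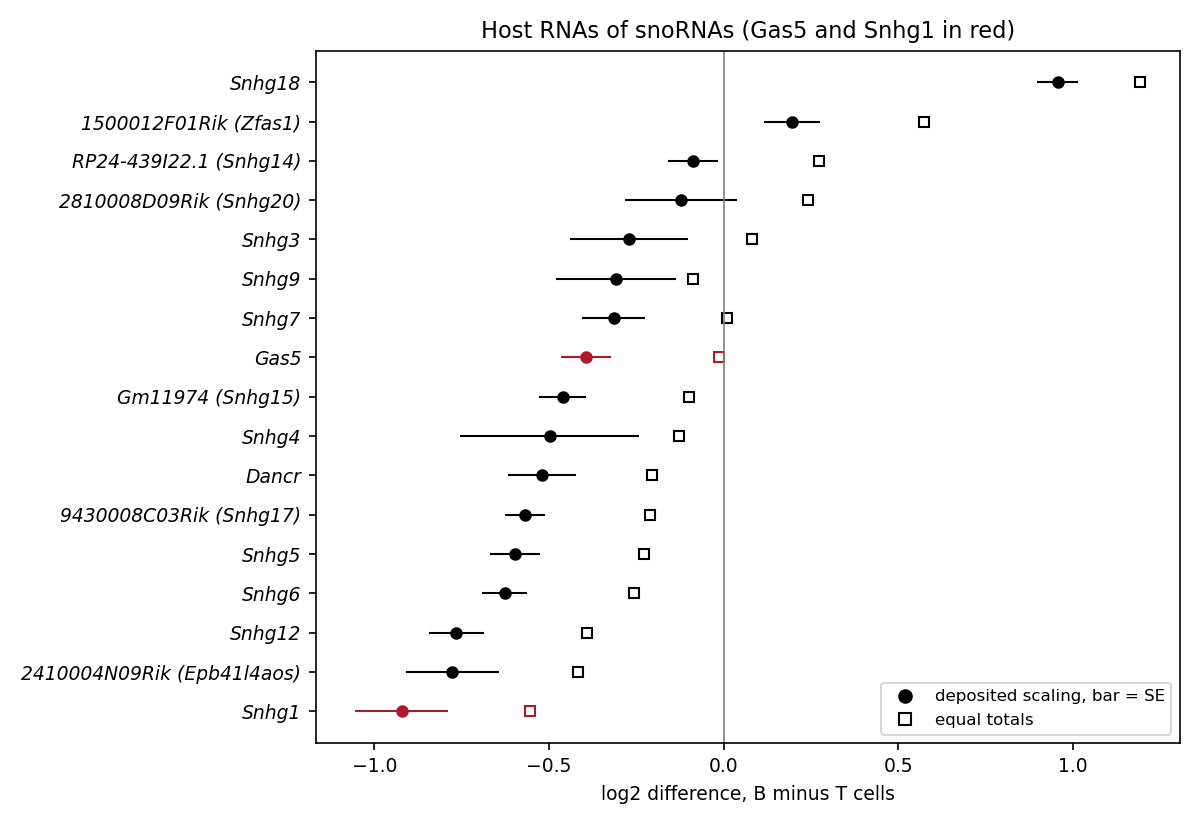
Log2 difference, B minus T cells (horizontal axis), of Gas5, Snhg1 (red) and the 15 other snoRNA host RNAs tested, as deposited (filled, with SE) and at equal totals (open). Snhg1 is the lowest at −0.92 and Snhg18, which entered the test through B cells alone, the highest. Each open square lies to the right of its filled point.

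Factors of nonsense-mediated decay went both ways. Of 10 tested, 4 were higher in B cells (31.4% of all genes), 2 in T cells (41.6% of all genes) and 4 did not pass, with a median log2 difference of 0.17. Upf3b, which links the decay factors to exon junctions, had a difference of 0.59 (SE 0.08), while Smg9, a partner of the kinase Smg1, had −0.61 (SE 0.07). At equal totals 6 were higher in B cells (38.4% of all genes were) and 0 in T cells (15.9% of all genes were).

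Of the 7 protein partners of 7SK tested, 3 were higher in B cells, the P-TEFb subunits Cdk9, Ccnt2 and Ccnt1, and 3 in T cells, Mepce and Larp7, which bind 7SK, and the P-TEFb inhibitor Hexim1. Hexim2, also an inhibitor, did not pass, and the shares of all genes were 31.4% and 41.6%. Cdk9, the kinase, had 52.7 ± 0.831 adjusted TPM (SD, n = 6) in B and 32.0 ± 1.6 in T cells, a log2 difference of 0.70 (SE 0.04, limma adjusted p = 1.3e-08), and Ccnt2, its cyclin, 0.46 (SE 0.09). Mepce, which caps 7SK, had 26.4 ± 1.85 and 37.4 ± 1.4, a difference of −0.49 (SE 0.05, adjusted p = 2.3e-06), and Hexim1 −0.43 (SE 0.10). At equal totals the 3 P-TEFb subunits passed again as higher in B cells, where 38.4% of all genes did. None of the 3 others passed as higher in T cells, where 15.9% of all genes did, and Larp7 turned to 0.17 (adjusted p = 0.48). With same-numbered T cell libraries as correlated pairs the call of Larp7 was lost, leaving 2 higher in T cells. Rn7sk itself had −0.34 and did not pass, but it passed in the fit without the trend (limma adjusted p = 0.0040).

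Proteins that share a particle with the other short RNAs were higher in T cells or did not pass, where 41.6% of all genes were higher in T cells. Of the RNase P and RNase MRP proteins 10 were tested, 7 were higher in T cells and none in B cells, led by Pop5 with −0.83 (SE 0.07) and Rpp40 with −0.82 (SE 0.09), which were also the 2 that passed at equal totals. Of the signal recognition particle proteins 7 were tested and 4 were higher in T cells, led by Srp9 with −0.66 (SE 0.08) and Srp14 with −0.42 (SE 0.08), the pair that binds the Alu end of 7SL. None of the 4 passed at equal totals, where 15.9% of all genes were higher in T cells. Of 20 subunits and factors of RNA polymerase III, 3 were higher in B cells, 6 in T cells and 11 did not pass, both counts being below the shares of all genes, 31.4% and 41.6%. Polr3gl had the largest difference toward T cells, −0.53 (SE 0.07). At equal totals the count was 3 higher in B and 0 in T cells, beside 38.4% and 15.9% of all genes.

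Proteins of the nuclear bodies of Neat1 and Malat1 were tested in the same way. Of 13 paraspeckle proteins, 7 were higher in B cells (31.4% of all genes), 3 in T cells (41.6% of all genes) and 3 did not pass, with Cpsf6 at 0.51 (SE 0.08) and Hnrnph3 at 0.45 (SE 0.12) against Nudt21 at −0.56 (SE 0.07) and Nono at −0.21 (SE 0.06). At equal totals 8 passed as higher in B cells (38.4% of all genes did) and 0 in T cells (15.9% of all genes did). Nudt21 then had −0.19 (adjusted p = 0.40) and Nono turned to 0.17 (adjusted p = 0.50). Of 6 nuclear speckle proteins, 3 were higher in B cells, Srrm2 with 0.31 (SE 0.11), Srrm1 with 0.30 (SE 0.09) and Son, and 3 did not pass. At equal totals 4 were higher in B cells, beside the same 38.4% of all genes. The call of Son was lost with same-numbered T cell libraries as correlated pairs. Neat1 and Malat1 had small differences in the same direction, 0.11 and 0.16, which did not pass as deposited.

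The markers went with the labelled cell types. Higher in B cells were 4 of 4 B cell markers (31.4% of all genes were), and higher in T cells 5 of 5 T cell markers (41.6% of all genes were). Pax5, Cd3e and Cd4 entered the test through the cells where they are high, and the T cells were selected as CD4+. These counts are therefore a description of the labels and not a test of them. The summed level of 6 genes that respond to dissociation ran from 130 to 531 adjusted TPM in B and from 222 to 755 in T cells. Of these, 2, Junb and Dusp1, were higher in T cells (41.6% of all genes were) and 4 did not pass. At equal totals 2 were higher in B cells and 1 in T cells, beside 38.4% and 15.9% of all genes. That fit did not use the spread of each gene itself. Fosb, with 26.9 ± 16.6 adjusted TPM (SD, n = 6) in B and 17.2 ± 10.3 in T cells, shows this. Its log2 difference went from 0.63 (limma adjusted p = 0.31) as deposited to 0.98 (adjusted p = 1.3e-06). The 5 erythroid markers summed to 4.17 to 346 adjusted TPM in B and 3.36 to 77.4 in T cells, and the 5 myeloid markers to 9.22 to 13.8 in B and 1.10 to 4.66 in T cells. Their part in the levels of the 9 RNAs was not tested.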

How the data were processed

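RNA from sorted spleen cells was depleted of ribosomal RNA with Ribo-Zero Gold and made into stranded TruSeq libraries with ERCC spike-ins. The submitters' processing notes name Trim Galore, FastQC, STAR and mm10, and the quantifier is not given in the sources used here. The signal deposited by the authors is an adjusted TPM with a lower and an upper bound per gene and library. It is TPM rescaled between libraries and never 0, and library totals ran from 561020 to 1453940. Depth is unknown. Groups came from the labels, and no sample was left out.

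Genes of at least 1 adjusted TPM in at least 3 of 12 libraries were tested with limma 3.58.1 (R 4.3.3) on log2(value + 1), with a mean-variance trend, 1 mean per group and Benjamini-Hochberg adjustment over 12520 genes. Fold differences of low genes are understated on this scale. In libraries simulated for B against T cells over 12520 genes, the fit recovered 98 of 100 genes changed by 1 on the log2 scale and 97 of 100 changed by 2, with 6 calls among unchanged genes. The changed genes were drawn at random above a low level, and the noise was independent between libraries. These rates therefore do not speak for RNAs with a wide SE in the real fit, such as Yam1 (1.02), Rn7sk (0.70) and Gm26191 (0.61). Gene positions and types were taken from GENCODE M21 (GRCm38), in which 97.9% of the identifiers matched (Snhg1 was located by symbol), and sequences from M21 transcripts or RefSeq. Some genes of the lists and 1 sequence are not reported here. Same-numbered T cell libraries of females and males deviated together from their group means (r 0.72, 0.55 and 0.52) and B cell libraries did not (r −0.17, −0.04 and −0.34). The numbers come from the labels.

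Named were the 9 RNAs, the 3 genes most like each by Pearson r, the nearest coding genes, snoRNA genes inside Gas5 and Snhg1, and, in each fixed list, genes with the largest differences in each direction. The members and lists were chosen with earlier results of these data known. Alternatives were another pseudocount, no filter, 4 other scalings, no trend, 1 sex alone, 1 cell type alone, the replicate number as a block and leaving out each library. Summing the 7SL copies, leaving out the 2 libraries highest in Yam1 and fitting same-numbered T cell libraries as correlated pairs (limma duplicateCorrelation) were added after seeing the data.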

Additional observations from a re-analysis of the deposited data

Results flagged for a closer look

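Each RNA and the sum of the 9 were searched, as adjusted TPM and as a share of the total, for a library at either end whose gap to the nearest other, divided by the range over the 6 libraries of a cell type, exceeded Dixon's critical value at the 95% level. Of 40 such groups 9 held one. Chance alone gives about 1 in 20 where values are normal and groups independent. Levels, shares and the sum of the 9 rest on the same libraries, so this count does not measure an excess over chance.

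Male T cell 6 stood apart from the other T cells with 543238 adjusted TPM of Yam1, a gap of 0.734 of the range. The same library stood apart for the 9 RNAs together, by 0.831 of the range in adjusted TPM and by 0.733 as a share of 49.8%. It was also the lowest T cell library in the share of Gas5, 0.0240% of its total with a gap of 0.753, and of Rn7sk, 6.61% with a gap of 0.627. In adjusted TPM neither Gas5 nor Rn7sk stood apart there.

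Female B cell 1 stood apart from the other B cells with 321581 adjusted TPM of Yam1 (gap 0.642 of the range) and 443829 for the 9 RNAs together (gap 0.637). It was also the highest B cell library in Malat1, with 2845 adjusted TPM and a gap of 0.63.

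Male T cell 4 stood apart from the other T cells in Snhg1, with 64.3 adjusted TPM and a gap of 0.666 of the range.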

How the results depend on the processing

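Snhg1 kept its direction and passed the test under all 24 alternatives, and Gas5 kept its direction under all 24 and passed in 22. At equal totals of 1000000 the log2 difference, B minus T, of Gas5 was −0.013 (limma adjusted p = 0.96) and without the 9 RNAs in the total −0.11 (adjusted p = 0.36). In the same order, Neat1 passed with 0.49 and 0.39, Rpph1 turned to 0.15 and 0.057 without passing, Nono to 0.17 and 0.071 and Smg5 to 0.20 and 0.11, and Malat1 passed with 0.44 only without the 9 RNAs in the total. Rn7sk turned to 0.041 and Polr3e to 0.020 at equal totals. Under quantile normalization Malat1 passed with 0.77, while Rn7sk turned to 0.32 and Rpph1 to 0.42 without passing. Without the trend 4 of the 9 RNAs passed, Rn7sk with −0.34 and Rmrp with −0.81 being added. With males alone Neat1 turned to −0.065 and Gm26191 to 0.044. Leaving out each library in turn, Rmrp ranged from −0.99 to −0.55 and passed without female B cell 2 (adjusted p = 0.043) or male B cell 3 (adjusted p = 0.050). The cause of these changes was not tested. Adjusted p of the members over these alternatives ran from 3.9e-06 for Snhg1 to 0.97 for Gm26191.

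No member passed between the sexes under any alternative. With no filter, which adds genes of very low values, 24591 genes passed between B and T cells, 10985 between the sexes in B cells, 10607 in T cells and 11201 for the difference of the sex effects. At equal totals the last 3 counts were 36, 23 and 16, against 18, 13 and 0 as deposited (295 genes had an unadjusted p under 0.05 for the last). The sex count in B cells was 5 in B cell libraries alone and 11 without the 2 libraries highest in Yam1, and in T cells it was 24 with a pseudocount of 0.1. For the difference of the sex effects 1 gene passed with a pseudocount of 0.1, 2 at equal totals without the 9 RNAs, 1 under quantile normalization, 3 without the trend, and 0 to 3 when a library was left out. With the replicate number as a block the counts were 14 in B cells, 10 in T cells and 0 for the difference, and the block changed no call of a member between the sexes. The block was not part of the B against T comparison. There, taking same-numbered T cell libraries as correlated pairs (consensus correlation 0.479), 8736 genes passed and no call of a member changed, while 34 genes passed between the sexes in T cells and 3 for the difference of the sex effects. Median shares over the 12 libraries moved by less than the spread between libraries with Yam1 left out of the total or with the lower or upper bounds. The extremes moved more: with Yam1 left out, the lowest share of Rn7sk went from 6.61% to 10.6% (SD within groups 2.52) and the highest of the 9 RNAs from 49.8% to 27.1% (SD 8.27). The unknown depth limits what can be said of low rows such as the snoRNAs.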

Other observations

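Long noncoding RNAs outside the 9 went both ways. Of 15 listed, 9 were tested: 6 were higher in B cells (31.4% of all genes were), 2 in T cells (41.6% of all genes were) and 1 did not pass (limma, adjusted p of 0.05), with a median log2 difference, B minus T, of 0.55. Ftx, an RNA of the X inactivation centre, had the largest difference, 1.79 (SE 0.08), with 17.8 adjusted TPM in B and 4.44 in T cells. Gm26667 (Mir155hg), the host of miR-155, followed with 1.00 (SE 0.11). Its levels were low, 1.68 adjusted TPM in B and 0.353 in T cells, and it entered the test through B cells alone. Pvt1, the neighbour of Myc, was higher in T cells with −0.97 (SE 0.07), and Jpx with −0.44 (SE 0.10), a call that was lost at equal totals (−0.17, adjusted p = 0.44).

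Of the other small structural RNAs, 6 were tested. Rnu11, the U11 RNA of the minor spliceosome, had 32.3 adjusted TPM in T and 6.67 in B cells, a log2 difference of −2.18 (SE 0.32, adjusted p = 5.3e-05) with no overlap between the cell types, and it passed at equal totals too. Vaultrc5, a vault RNA, was higher in T cells with −0.52 (SE 0.16), a call that was lost at equal totals (−0.28, adjusted p = 0.14), and Terc, the RNA of telomerase, was higher in B cells with 0.28 (SE 0.10). Rny1, Rnu12 and the 7SL row Gm22405 did not pass.

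Sit1, a coding gene 9053 bases from Rmrp, had 51.4 ± 9.29 adjusted TPM (SD, n = 6) in T and 4.51 ± 0.58 in B cells, a log2 difference of −3.24 (SE 0.11). Ick, 3195 bases from Rn7sk, had 3.84 ± 0.50 in T and 1.47 ± 0.08 in B cells, a difference of −0.97 (SE 0.07).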
